A study of Mus musculus with 2 samples.

Results

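The genes described here encode 10 enzymes of glutathione metabolism, of transsulfuration and of the antioxidant programme driven by the transcription factor NRF2. They were taken by gene symbol from a table of 21937 mouse genes, and all 10 were found and had reads in every library. The cells were wild-type embryonic stem (ES) cells of a mixed 129Sv-C57Bl/6 strain, grown without feeder cells. One group received the solvent DMSO and the other 500 nM ICRF-193, which blocks the catalytic cycle of topoisomerase II, each for 16 h. Each of the 2 groups was sequenced as 3 libraries, and the deposited table gives group means only.

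Glutathione, the main small thiol of the cell, is built from glutamate, cysteine and glycine and reduces peroxides. Transsulfuration supplies cysteine from homocysteine. NRF2 is held by KEAP1, which marks it for degradation, and when released it binds antioxidant response elements and raises genes of glutathione synthesis, thioredoxin reduction, quinone reduction and heme breakdown. Among the genes counted below, Chac1, Slc7a11 and Cth are also known targets of ATF4, the transcription factor of the amino acid response.

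Values are normalised reads, that is, reads of a library over its size factor. Reads per library were worked back from the printed group means. Within a group, the library with the largest size factor is called A, the next B and the last C. These letters are names and not replicate numbers. Recovered totals ran from 27108181 to 43339952 reads per library, without 51 genes of high level that were not resolved. Whether the libraries of a group stem from separate cultures is not in the labels, and the p-values reflect only how these libraries vary, which may be technical. All 8 ES cell markers examined were present in every library. Their summed level was 132764 to 156789 normalised reads in DMSO and 89023 to 110843 in ICRF-193. All 8 had a lower mean in ICRF-193, and Zfp42 alone was called lower by the authors' deposited DESeq test (adjusted p = 0.00186). Library A was above the mean of B and C in both groups for 3 of the 8. Nanog, for example, was at 2.14 times that mean in DMSO and 3.00 times in ICRF-193. Pou5f1 went the other way, at 0.674 and 0.671. The summed level of 8 fibroblast or feeder cell markers was 18568 in DMSO-A and 21285 in ICRF-193-A, but 2113 to 2124 in the other DMSO libraries and 2927 to 3663 in the other ICRF-193 libraries. Of these 8, the collagen gene Col1a1 was the most abundant and Lum was under 2 in every library. Library A was above the mean of B and C in both groups for 6 of the 8. Thy1 went the other way, at 0.624 of that mean in DMSO and 0.832 in ICRF-193. Because libraries A stood apart in this way, the ratio of each of the 10 genes is also given between libraries A and between libraries B and C; the part of this marker difference in the results was not tested. In bulk RNA, fewer cells of a type and less RNA per cell cannot be told apart.

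After ICRF-193, Cbs and Nqo1 rose, and the other 8 genes did not pass the test. Cbs, the enzyme that joins homocysteine and serine to cystathionine, was 2.49-fold higher, and Nqo1, a quinone reductase and classic NRF2 target, was 1.90-fold higher in the authors' deposited table. The deposited DESeq test called 2 of the 10 genes higher and 0 lower at an adjusted p under 0.05. At an unadjusted p under 0.05, 3 were higher and 0 lower. Over all 18759 genes with reads, 5.97% were called higher and 1.26% lower, 7.23% in either direction, and 16.9% had an unadjusted p under 0.05. In the authors' deposited table the median log2 ratio of the 10 genes was 0.19, against -0.04 over the 14976 genes that reached 10 reads in 3 or more libraries.

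**Figure D1:**
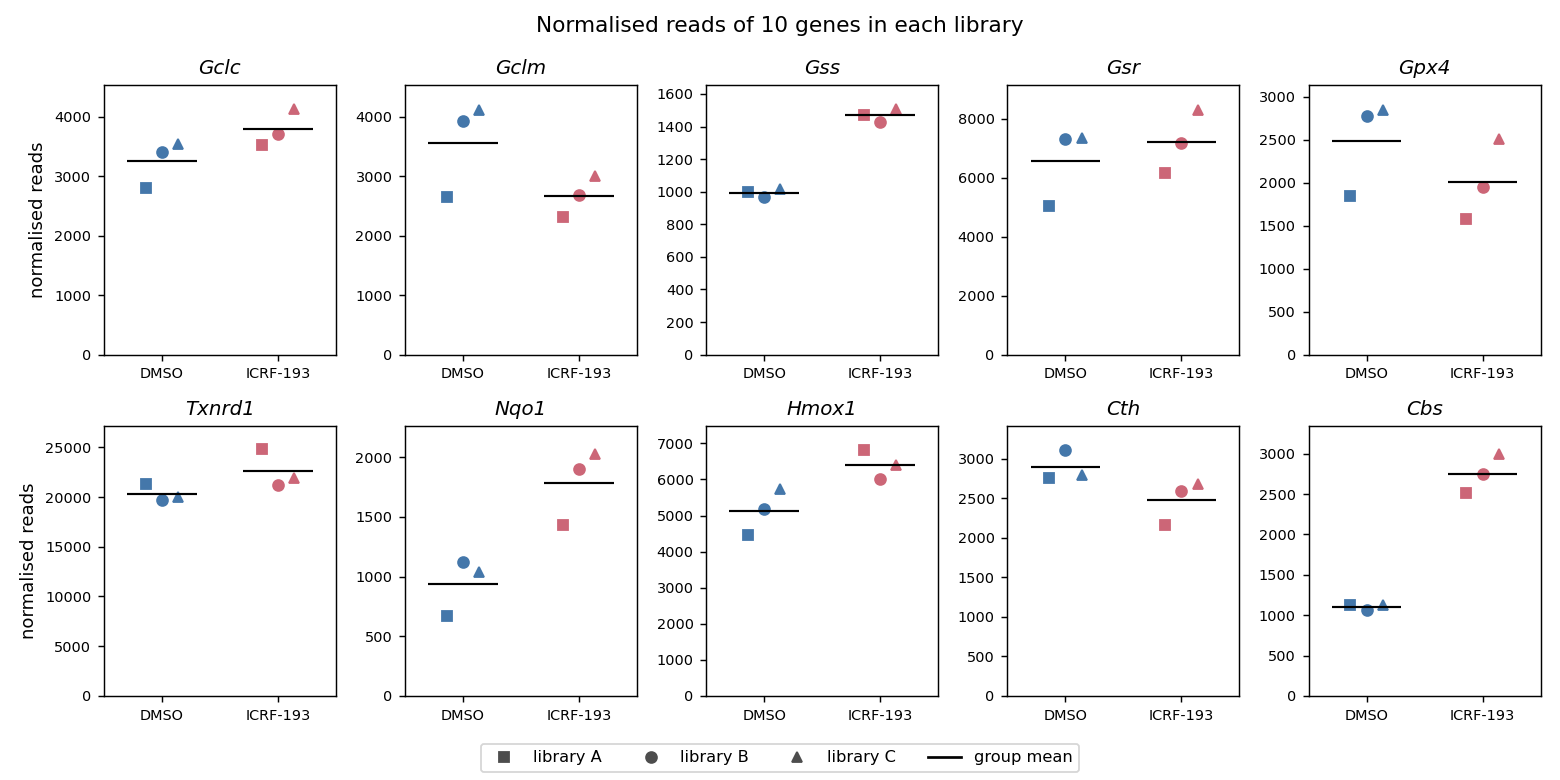
Normalised reads (y axis, from 0, a scale per gene) of each of the 10 genes in the 3 DMSO and the 3 ICRF-193 libraries (x axis); squares, circles and triangles are libraries A, B and C, and lines are group means. The ICRF-193 libraries lie above all DMSO libraries for Cbs, Nqo1, Gss and Hmox1 and below them for Cth.

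The genes of transsulfuration differed from each other. Cbs was at 1124, 1065 and 1124 normalised reads in DMSO (libraries A, B and C, the order used for every gene below), and at 2511, 2751 and 2997 in ICRF-193. The lowest ICRF-193 library was thus above the highest DMSO library, and the group means were 1104 ± 33.7 and 2753 ± 243 (SD, n = 3). Its log2 fold change was 1.32 in the authors' deposited table (adjusted p = 8.44e-06, DESeq). On the recovered reads limma-voom gave 1.31 with a standard error of 0.11 (adjusted p = 0.00222). Cbs was called in all 12 limma-voom fits, which differ in scaling, filter, libraries left out and a term for libraries A, with an adjusted p between 2.52e-07 and 0.0237. The ratio was 2.23 between libraries A and 2.63 between libraries B and C. Cth, which splits cystathionine to release cysteine, was at 2759, 3110.1 and 2799 in DMSO and at 2164, 2589 and 2679 in ICRF-193. All 3 ICRF-193 libraries were below all 3 DMSO libraries, by a small margin. In the authors' deposited table its log2 fold change was -0.22 (adjusted p = 0.78, DESeq). Cth passed in 1 of the 12 limma-voom fits, the one with a term for libraries A (adjusted p = 0.00986).

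Within a library, the balance of the pair differed between the groups. The ratio of Cbs reads to Cth reads was 0.407, 0.343 and 0.402 in DMSO and 1.16, 1.06 and 1.12 in ICRF-193. It averaged 0.384 ± 0.0358 in DMSO and 1.11 ± 0.0492 in ICRF-193 (SD, n = 3), a 2.90-fold difference with no overlap. A ratio within a library does not depend on its size factor. It shows that the genes differed unequally and not which of them differed. How often the ratios of other gene pairs separate the groups in this way was not determined.

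The subunits of glutamate-cysteine ligase, the rate-limiting enzyme of glutathione synthesis, lay on opposite sides of their DMSO levels, though neither passed in the deposited test. Gclc, the catalytic subunit, was at 2800.3, 3404 and 3541 normalised reads in DMSO and at 3527, 3705 and 4133 in ICRF-193. The ICRF-193-A library was just below DMSO-C, so the groups overlapped. Gclm, the modifier subunit that makes the enzyme more efficient, was at 2644, 3930.5 and 4107 in DMSO and at 2311, 2675 and 2999.7 in ICRF-193. Here DMSO-A stood below both ICRF-193-B and ICRF-193-C, while DMSO-B and DMSO-C were above every ICRF-193 library. Gclc had a log2 fold change of 0.22 in the authors' deposited table (adjusted p = 0.758, DESeq) and Gclm one of -0.42 (adjusted p = 0.443, DESeq). With a term for libraries A, limma-voom called Gclc higher (adjusted p = 0.00821) and Gclm lower (adjusted p = 7.21e-04). Gclm was also lower in limma-voom without DMSO-A (adjusted p = 0.0284) and without both libraries A (adjusted p = 2.35e-04), where Gclc did not pass (adjusted p = 0.0623). The ratio of Gclc reads to Gclm reads was 1.06, 0.866 and 0.862 in DMSO and 1.53, 1.38 and 1.38 in ICRF-193. Its mean was 0.929 ± 0.112 and 1.43 ± 0.0839 (SD, n = 3), 1.54-fold higher in ICRF-193, and the groups did not overlap. Here too the share of gene pairs that separate in this way was not determined.

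**Figure D2:**
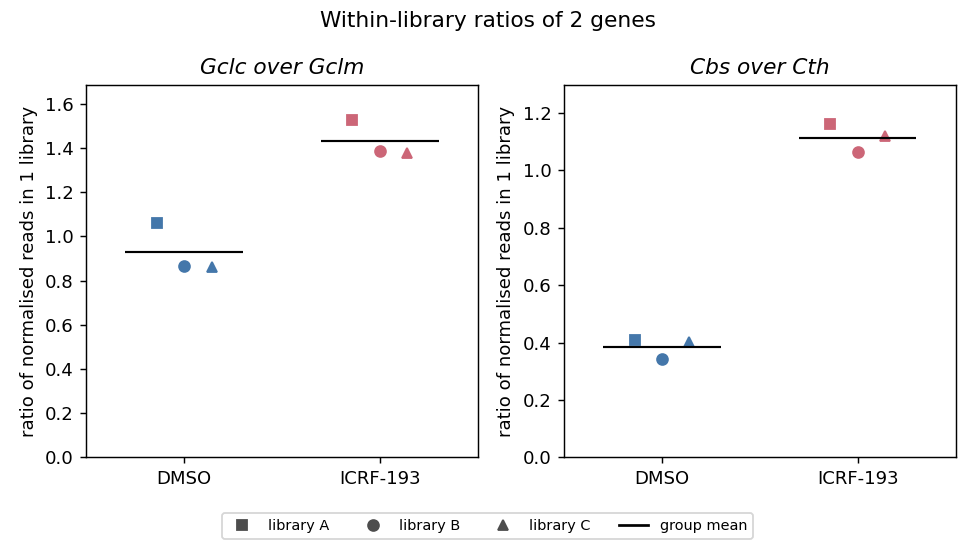
Ratio of the normalised reads of Gclc to Gclm (left) and of Cbs to Cth (right) within each library (y axes, from 0), by group (x axis); squares, circles and triangles are libraries A, B and C, and lines are means. Every ICRF-193 library lies above every DMSO library in both panels, with means of 1.43 against 0.929 and of 1.11 against 0.384.

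Gss, glutathione synthetase, adds glycine in the last step of glutathione synthesis. It was at 996, 967 and 1018 normalised reads in DMSO and at 1473, 1430 and 1506 in ICRF-193. The groups did not overlap, and the SD was 2.56% of the mean in DMSO and 2.60% in ICRF-193, the smallest among the 10 genes in each group. The ratio was 1.48 both between libraries A and between libraries B and C. The log2 fold change of 0.56 in the authors' deposited table did not pass after adjustment (p = 0.0222, adjusted p = 0.179, DESeq). On the recovered reads limma-voom called Gss higher (adjusted p = 0.0125), as it did with a term for libraries A (adjusted p = 2.50e-05). The limma-voom call was lost without DMSO-B, DMSO-C, ICRF-193-B or ICRF-193-C (adjusted p = 0.0755, 0.0540, 0.0688 and 0.0746), with log2 fold changes of 0.55, 0.58, 0.58 and 0.55. Gss shares 13 exonic bases with Acss2 on the opposite strand, and antisense transcripts overlap it; the strand of the reads is not stated, so reads in these overlaps are uncertain.

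Of the 10 genes, Gsr and Gpx4 recycle and use glutathione, and neither passed the deposited test. Gsr, the reductase that regenerates glutathione with NADPH, was at 5029, 7315 and 7363 normalised reads in DMSO and at 6151, 7198 and 8311 in ICRF-193. Gpx4, the selenium enzyme that reduces lipid peroxides and guards against ferroptosis, was at 1842, 2783 and 2843 in DMSO and at 1574, 1954 and 2515 in ICRF-193. The groups overlapped for both genes, and for both the lowest library of each group was library A. Gsr had a log2 fold change of 0.14 in the authors' deposited table (adjusted p = 0.888, DESeq) and Gpx4 one of -0.31 (adjusted p = 0.726, DESeq). Gsr passed in 0 of the 12 limma-voom fits, with a lowest adjusted p of 0.0758 and, without DMSO-A, a log2 fold change of -0.04. Gpx4 was called lower in 2 of the 12 limma-voom fits, with a term for libraries A (adjusted p = 0.00865) and without both libraries A (adjusted p = 0.0148).

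Of the NRF2 targets outside glutathione metabolism, Nqo1, Hmox1 and Txnrd1, the first rose. Nqo1 was at 667, 1119 and 1036 normalised reads in DMSO and at 1434, 1901 and 2026 in ICRF-193. The groups did not overlap, and library A was the lowest of each group. The means were 941 ± 241 and 1787 ± 312 (SD, n = 3). The authors' deposited table gave a log2 fold change of 0.93 (adjusted p = 0.00334, DESeq). The ratio was 2.15 between libraries A and 1.82 between libraries B and C. On the recovered reads the limma-voom adjusted p was 0.0405, and 2.56e-06 with a term for libraries A. The limma-voom call was lost without DMSO-B, DMSO-C, ICRF-193-B or ICRF-193-C (adjusted p = 0.0825, 0.0898, 0.149 and 0.139), with log2 fold changes of 1.10, 1.04, 0.90 and 0.86.

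Hmox1, which breaks heme down to biliverdin, iron and carbon monoxide, was at 4449, 5173 and 5748 normalised reads in DMSO and at 6805, 6015 and 6393 in ICRF-193. All ICRF-193 libraries were above all DMSO libraries. The ratio was larger between libraries A, at 1.53, than between libraries B and C, at 1.14; whether these ratios differ was not tested. The log2 fold change of 0.32 in the authors' deposited table did not pass (adjusted p = 0.546, DESeq). Hmox1 was called higher by limma-voom with a term for libraries A (adjusted p = 0.0053) and without both libraries A (adjusted p = 0.0431). Txnrd1, the selenium enzyme that reduces thioredoxin with NADPH, was at 21328, 19679 and 20008.5 in DMSO and at 24858, 21164 and 21913 in ICRF-193. Its reads per library had more than a single solution and were taken at a posterior of 0.99 or more. ICRF-193-B lay just below DMSO-A, so the groups overlapped. Its log2 fold change in the authors' deposited table was 0.15 (adjusted p = 0.893, DESeq), and it passed in limma-voom with the term for libraries A (adjusted p = 0.0101).

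**Figure D3:**
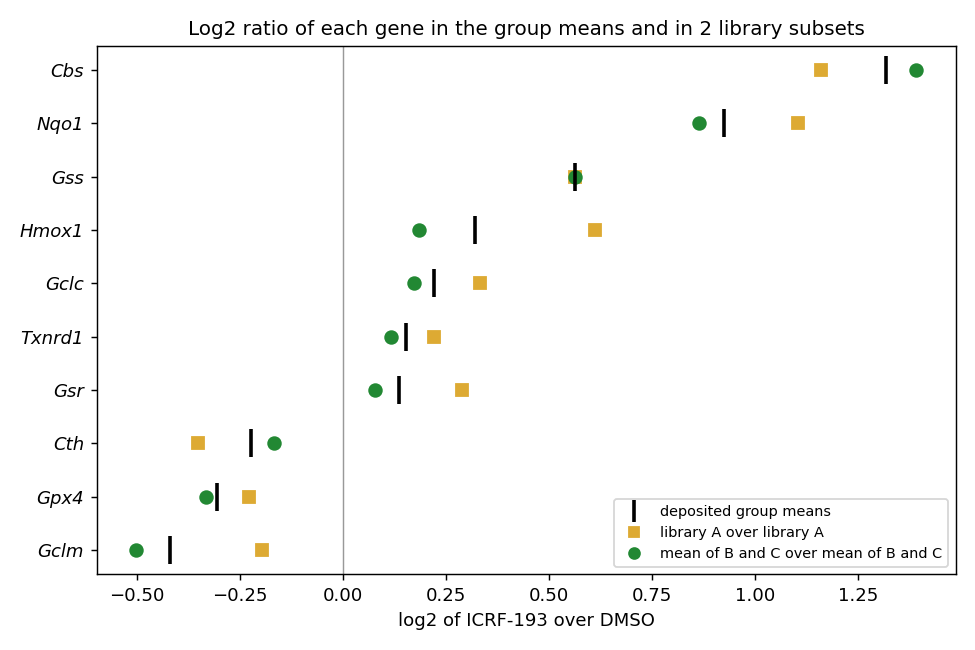
Log2 of ICRF-193 over DMSO (x axis) for each of the 10 genes (y axis) in the deposited group means (bars), between libraries A (squares) and between the means of libraries B and C (circles). All 10 genes have the same sign in both subsets; Gss is alike in both, and Hmox1 is 0.61 between libraries A and 0.18 between libraries B and C.

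All 10 genes had the same direction in libraries A as in libraries B and C, as did 85.1% of all 14976 genes. For genes not yet given, the ratio between libraries A and that between libraries B and C were 1.26 and 1.13 for Gclc, 1.22 and 1.06 for Gsr, and 1.17 and 1.09 for Txnrd1. Below 1, they were 0.874 and 0.706 for Gclm, 0.855 and 0.794 for Gpx4, and 0.784 and 0.891 for Cth. The libraries of the groups did not overlap for 4 genes that were higher and 1 that was lower; over the 14976 genes this was so for 18.7% and 18.8%, 37.4% in either direction. How many of the 10 were called depended on the model of the libraries. The term for libraries A groups DMSO-A with ICRF-193-A. No label ties these libraries to a shared batch or culture, and the grouping was drawn from these same data. The adjusted p-values of fits with that term depend on the grouping. Limma-voom called 3 higher (Cbs, Nqo1 and Gss) and 0 lower, where it called 9.76% of all genes higher and 5.95% lower. With a term for libraries A it called 6 higher and 3 lower, all but Gsr, where it called 27.1% and 32.6% of all genes, 59.7% in either direction. Without both libraries A it called 4 higher and 2 lower, against 24.1% and 29.8% of all genes. Without DMSO-B, DMSO-C, ICRF-193-B or ICRF-193-C, limma-voom called 1 gene, Cbs. The share of all genes called in those fits is not given here, so whether the loss of calls is particular to these genes cannot be told.

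Levels of different genes were compared per kilobase of the median protein-coding transcript. In DMSO, Txnrd1 was highest at 5933 normalised reads per kilobase (5741 to 6222 over the libraries), followed by Hmox1 at 3265 (2835 to 3664), Gpx4 at 2596 (1921 to 2965) and Gsr at 2458 (1881 to 2754). Hmox1 overlapped with Gpx4, and Gpx4 with Gsr. Cth followed at 1592 (1520.0 to 1714), clear of Gsr above and of Gclm below it. Gclm at 1080.4 (802 to 1246) and Gclc at 949 (818 to 1035) overlapped. Nqo1 at 606 (430 to 721) and Gss at 539 (525 to 552) overlapped too, and Cbs was lowest at 441 (426 to 449). Cbs was clear of Gss but overlapped with Nqo1, whose DMSO-A library was below that of Cbs. In ICRF-193, Cbs was at 1099.8 per kilobase (1003 to 1197). It was above Gclm at 808 (701 to 910) and Gss at 797 (776 to 817), with no overlap, and overlapped with Gclc. Nqo1 was then at 1151 (924 to 1304) and overlapped with Gclc at 1107 (1030.5 to 1207). With all annotated exons merged, a longer measure for Cbs, Cbs had the lowest mean of the 10 in both groups, and in ICRF-193 its libraries (401 to 478) overlapped with those of Gclm (413 to 537).

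Promoter windows, 250 bases before to 50 after an annotated start, were found in RefSeq (GRCm38.p6) for 6 of the 10 genes, with 11 windows. Gclc, Gsr, Hmox1 and Cth had none, and Gpx4 and Txnrd1 had several each. They were searched on both strands for TGACNNNGC, the core of the antioxidant response element, and for TGATGNAA, the C/EBP-ATF response element bound by ATF4; these letters do not overlap in any printed match. TGACNNNGC was found in 2 of the 11 windows, and in 12.4% of all 32851 windows. TGATGNAA was found in 0 of the 11, and in 3.97% of all. The matches lay upstream of Gclm and Txnrd1, which did not pass the deposited test. They are shown with 30 bases on each side, 5′ to 3′ along the gene, with the 9 matched bases in capitals; both are on the reverse strand, so the letters printed are the reverse complement of the motif. The Gclm match is 134 to 126 bases before the start, within chr3:122245393-122245461 (plus strand), and the Txnrd1 match is 92 to 84 bases before one of its annotated starts, within chr10:82859084-82859152 (plus strand).
Gclm: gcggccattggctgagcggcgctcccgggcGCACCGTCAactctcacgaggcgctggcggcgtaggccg
Txnrd1: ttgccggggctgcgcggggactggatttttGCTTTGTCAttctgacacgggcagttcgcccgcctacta

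For comparison, the windows of the genes that rose hold no match of either motif. They are shown whole, in lower case, Nqo1 from chr8:107403156-107403455 (minus strand) and Cbs from chr17:31637156-31637455 (minus strand). No match says only that these letters are not in these 300 bases.
Nqo1: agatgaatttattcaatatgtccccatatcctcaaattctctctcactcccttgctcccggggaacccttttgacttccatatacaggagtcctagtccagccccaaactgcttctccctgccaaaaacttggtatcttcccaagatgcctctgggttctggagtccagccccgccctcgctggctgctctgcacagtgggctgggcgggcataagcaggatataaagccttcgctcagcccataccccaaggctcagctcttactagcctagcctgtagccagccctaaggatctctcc
Cbs: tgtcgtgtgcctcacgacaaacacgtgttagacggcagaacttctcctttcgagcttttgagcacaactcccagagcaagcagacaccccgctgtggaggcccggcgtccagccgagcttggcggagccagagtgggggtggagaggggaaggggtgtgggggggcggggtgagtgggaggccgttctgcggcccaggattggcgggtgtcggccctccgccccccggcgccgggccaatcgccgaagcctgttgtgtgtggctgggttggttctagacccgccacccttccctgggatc

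Of 17 genes of the list of NRF2 and its regulators 0 passed the deposited DESeq test in either direction, where 7.23% of all genes passed. Before adjustment 1 was higher and 2 lower (p under 0.05), where 16.9% of all genes passed in either direction. In limma-voom 2 were higher and 2 lower, where 9.76% and 5.95% of all genes were called. With a term for libraries A 4 were higher and 8 lower, where 27.1% and 32.6% of all genes were called. The list's median log2 fold change in the authors' deposited table was -0.10. Nfe2l2, which encodes NRF2, was at 3775, 3799.5 and 3831 normalised reads in DMSO and at 4753, 3922 and 4217 in ICRF-193. Every ICRF-193 library was above every DMSO library, while the log2 fold change in the authors' deposited table was 0.18 (adjusted p = 0.853, DESeq). Keap1, the NRF2 inhibitor, was at 1237, 1067 and 1068 in DMSO and at 1043, 930.1 and 949 in ICRF-193, again without overlap. Its log2 fold change in the authors' deposited table was -0.21 (adjusted p = 0.802, DESeq). With a term for libraries A, limma-voom called Nfe2l2 higher (adjusted p = 0.0290) and Keap1 lower (adjusted p = 0.0146). Nfe2l1, a relative of NRF2 that controls proteasome genes, was at 11819, 9455 and 9202 in DMSO and at 8711, 6628 and 6389.9 in ICRF-193 (authors' deposited table, log2 fold change -0.49, adjusted p = 0.25, DESeq). Its groups did not overlap either. Libraries did not overlap, in either direction, for 37.4% of the 14976 genes. Nfe2l1 was called lower by limma-voom with the term for libraries A (adjusted p = 8.36e-06). Bach1, a repressor that competes for antioxidant response elements, was at 2816, 1687 and 1475 in DMSO and at 3044, 1659.99 and 1686 in ICRF-193, with libraries A high in both groups. Its log2 fold change in the authors' deposited table was 0.10 (adjusted p = 1, DESeq).

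Of 31 genes listed as other NRF2 targets, 28 had reads. Targets placed in another list are not counted here. In the deposited DESeq test 2 rose, 0 fell and 26 did not pass, where 5.97% of all genes were called higher and 1.26% lower. The median log2 fold change of the list was -0.04. At an unadjusted p under 0.05, 4 were higher and 1 lower, where 16.9% of all genes passed in either direction. Limma-voom called 4 higher and 1 lower, where it called 9.76% and 5.95% of all genes. Ephx1, an epoxide hydrolase, was at 275, 245 and 259 normalised reads in DMSO and at 1029, 1133 and 1313 in ICRF-193. It rose 4.46-fold in the authors' deposited table (log2 fold change 2.16, adjusted p = 1.23e-13, DESeq). Osgin1, an oxidative stress-induced growth inhibitor, rose from 5.57, 2.98 and 15.1 to 19.1, 31.1 and 31.4 (authors' deposited table, log2 fold change 1.79, adjusted p = 0.0211, DESeq). These levels are low, and limma-voom did not call Osgin1 (adjusted p = 0.0524), and called it with a term for libraries A (adjusted p = 0.00309).

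Of 40 genes that supply, use or degrade glutathione, 4 rose, 2 fell and 34 did not pass in the deposited test, where 5.97% of all genes were called higher and 1.26% lower. The median log2 fold change of the list was 0.15. At an unadjusted p under 0.05, 6 were higher and 5 lower, where 16.9% of all genes passed in either direction. Limma-voom called 3 higher and 4 lower of 39 tested, where it called 9.76% and 5.95% of all genes. Chac1, which degrades glutathione in the cytosol, fell most, from 1161, 1820.4 and 1613 normalised reads in DMSO to 75.3, 111 and 78.6 in ICRF-193 (authors' deposited table, log2 fold change -4.12, adjusted p = 3.97e-21, DESeq). Slc7a11, the transporter that imports cystine in exchange for glutamate, fell from 62.9, 85.3 and 103 to 34.1, 32.1 and 29.2 (authors' deposited table, log2 fold change -1.39, adjusted p = 0.00514, DESeq). Its groups did not overlap, as was so for 37.4% of the 14976 genes. The ratio for Slc7a11 was 0.543 between libraries A and 0.326 between libraries B and C. Gpx3, a secreted glutathione peroxidase, rose from 1235, 1149.8 and 1283 to 2831, 3610.3 and 3836 (authors' deposited table, log2 fold change 1.49, adjusted p = 2.58e-07, DESeq). Gstm6, a glutathione transferase, rose from 57.3, 62.5 and 77.8 to 105, 170.0 and 167 (authors' deposited table, log2 fold change 1.16, adjusted p = 0.00437, DESeq). Gstm genes are close copies of each other, so its reads are uncertain. The other genes that rose, named after their values were seen, were Anpep, a surface peptidase, 1.83-fold, and Gsto1, an omega-class transferase, 1.80-fold, both in the authors' deposited table. Limma-voom did not call Gsto1 (adjusted p = 0.0676), and called it with a term for libraries A (adjusted p = 5.31e-07).

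Of 22 genes of the methionine cycle, transsulfuration and sulfide oxidation, 2 rose, 2 fell and 18 did not pass in the deposited test. That test called 5.97% of all genes higher and 1.26% lower. The median log2 fold change of the list was -0.16. At an unadjusted p under 0.05, 2 were higher and 4 lower, where 16.9% of all genes passed in either direction. Limma-voom called 2 higher and 4 lower of 20 tested, where it called 9.76% and 5.95% of all genes. Mpst, which makes sulfide from mercaptopyruvate, fell from 779, 1190.4 and 1142 to 449.7, 612 and 623 (authors' deposited table, log2 fold change -0.89, adjusted p = 0.0168, DESeq). Bhmt2, a methyltransferase that can use S-methylmethionine, rose from 22.3, 13.9 and 11.9 to 53.2, 53.9 and 43.8 (authors' deposited table, log2 fold change 1.65, adjusted p = 0.00574, DESeq). Sqrdl, the mitochondrial enzyme that oxidises sulfide, rose from 31.0, 35.7 and 27.0 to 73.3, 78.8 and 85.3 (authors' deposited table, log2 fold change 1.34, adjusted p = 0.00692, DESeq). For these 3 genes no library of one group overlapped with the other, as was so for 37.4% of the 14976 genes. The test that picked them used these same libraries, so this is not separate support.

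Of 20 genes of the thioredoxin, peroxiredoxin and superoxide systems, 1 rose, 0 fell and 19 did not pass in the deposited DESeq test, with a median log2 fold change of -0.13. At an unadjusted p under 0.05, 2 were higher and 4 lower, where 16.9% of all genes passed in either direction. Limma-voom called 2 higher and 2 lower, where it called 9.76% and 5.95% of all genes. The one that rose was Msrb1, listed in the table under its older symbol Sepx1, a selenium enzyme that repairs oxidised methionine. Sepx1 was at 781, 867 and 924 normalised reads in DMSO and at 1318, 1682 and 1741 in ICRF-193 (authors' deposited table, log2 fold change 0.88, adjusted p = 0.00787, DESeq). Over the 130 genes of the 5 lists, 127 with reads, the deposited test called 9 higher and 4 lower, beside 5.97% and 1.26% of all genes. Limma-voom called 13 higher and 13 lower of 121 tested, beside 9.76% and 5.95% of all genes. With a term for libraries A it called 33 higher and 45 lower, beside 27.1% and 32.6% of all genes.

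**Figure D4:**
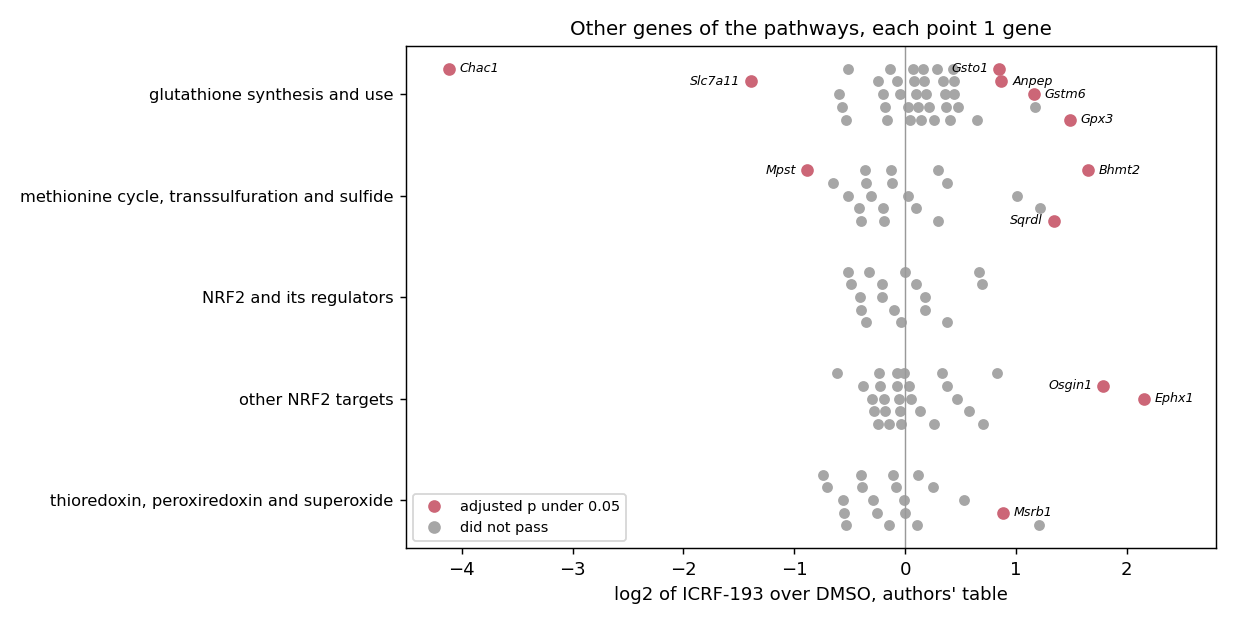
Log2 of ICRF-193 over DMSO in the authors' deposited table (x axis) for the genes of the 5 lists (y axis, points spread vertically for legibility); red points are genes at an adjusted p under 0.05, with their symbols, and grey points did not pass. The named points are 9 genes to the right of 0 and 3 to the left, with Chac1 at -4.12 farthest from 0.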

How the data were processed

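Per the labels' protocols, RNA was extracted from 2 groups of ES cells and sequenced after a standard Illumina library preparation. TopHat, HTSeq and DESeq and the mouse build mm9 are named, per the submitters' processing notes; versions, settings and strand are not given in the sources used here. The deposited DMSO and ICRF-193 columns are a signal, the authors' mean over a group of reads divided by size factors. The deposited fold change is the ratio of these means, the deposited log2 fold change its log2, and the p-values come from the authors' test per gene, called here at an adjusted p under 0.05.

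Whole reads of 3 libraries per group were worked back from the 15 significant digits of each mean, as sums of whole multiples of 3 steps, the inverse size factors. Of 18759 genes with reads, 18207 had a single solution, 501 were assigned by their probability (0.99 or higher) given how other genes varied, and 51 stayed unresolved. Recomputed size factors differed from the steps by at most 0.0428%. Of the 10 genes, 9 had a single solution; Txnrd1 did not. Genes reaching 10 reads in 3 or more libraries entered limma-voom (R 4.3.3 with limma 3.58.1), with Benjamini-Hochberg adjustment; recovery and fits were checked on simulated data. The 51 genes, 8.47% of the summed means, are absent from these fits and from total read scaling. TMM (trimmed mean of M values) was computed directly.

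Lengths and overlaps come from GENCODE M21 (GRCm38), matched by symbol; 130 of 130 list genes matched the table, 1 by an older symbol. The members, lists and tests were chosen with earlier results of these data known. Named genes are the 10 members, up to 4 called genes per list by size of change, and Nfe2l2, Keap1, Nfe2l1, Bach1 and Slc7a11. Of the called list genes, 1 is counted but not reported or drawn here. Alternatives were other tests, scalings, filters, thresholds and libraries left out.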

Additional observations from a re-analysis of the deposited data

How the results depend on the processing

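No paired analysis was possible because the deposited columns carry no replicate numbers and the letters of the libraries are names only. Of the 10 genes, the deposited test called 2 higher and 0 lower. Limma-voom with a term for libraries A gave 6 and 3, and without both libraries A 4 and 2; with a single library left out, limma-voom gave 1 to 3 higher and 0 to 1 lower. Of the other pathway genes, the deposited test called 9 higher and 4 lower. Limma-voom called 13 lower, with TMM scaling 14 and with no filter 12. With total read scaling it called 15 higher and 8 lower, with a term for libraries A 33 and 45, and without both libraries A 35 and 41. Leave-one-out limma-voom fits gave 3 to 14 higher and 1 to 21 lower, with 3 to 4 higher and 1 lower without DMSO-B, ICRF-193-B or ICRF-193-C. Of all genes, the deposited test called 5.97% higher and 1.26% lower, and limma-voom 9.76% and 5.95%. With a term for libraries A these shares were 27.1% and 32.6%, and without both libraries A 24.1% and 29.8%. Shares for the other fits are not given here. Total read scaling moved the median log2 fold change of all genes in limma-voom from -0.04 to 0.08; the direction of each of the 10 genes was the same there. Gsr was the only one of the 10 to change sign in any fit, at -0.04 without DMSO-A, and passed in 0 of them. A pseudocount of 10 changed no direction. The 10 genes had 838 to 26794 reads per library.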

Other observations

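Library A was lower than libraries B and C in both groups for some of the genes and close to them for others. The ratio of library A to the mean of B and C was 0.619 in DMSO and 0.731 in ICRF-193 for Nqo1, 0.655 and 0.704 for Gpx4, 0.658 and 0.814 for Gclm, and 0.685 and 0.793 for Gsr. For Gss it was 1.003 in both groups, for Cbs 1.03 and 0.874, and for Txnrd1 1.07 and 1.15. Hmox1 was the one of the 10 whose library A was below B and C in DMSO, at 0.815, and above them in ICRF-193, at 1.10.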
